A study of Rattus norvegicus with 15 samples.

Results

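The proliferation and mitosis genes described here are a module of 47 genes that dividing cells use to copy their DNA, to separate the copies and to cut the cell apart. They were listed by name and not by a threshold on their values in these samples, although earlier results of these data were known when they were chosen. The count table holds 45 of them, and all 45 passed the filter on low counts, among 15199 genes tested of 28914 in the table for Px against Sham. Ccnb2 and E2f1 are not analysed here. The study sequenced polyadenylated RNA of isolated islets of Langerhans, the clusters of hormone cells of the pancreas, from Lewis rats 10 weeks after surgery. In the Px rats 90% of the pancreas had been removed, and the Sham rats had a sham operation. Each sample carries a blood glucose value without a unit. The groups were higher-glucose Px (n = 3, glucose 416 to 464), lower-glucose Px (n = 7, glucose 104 to 211) and Sham (n = 5, glucose 88 to 96), with the boundary between the Px groups set at 300. All rats are labelled as 4-5 weeks old, without the point of the study this refers to, and all samples share the label "Inc_YES", which the labels do not explain and which was left uninterpreted. Isolated islets are a mixture of cells.

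A cell that commits to division first licenses its replication origins with Cdc6, Cdt1 and the Mcm2 to Mcm7 helicase. It then copies its DNA with the sliding clamp Pcna and with nucleotides made by ribonucleotide reductase and thymidylate synthase. Cyclins with their kinase Cdk1 drive it into mitosis, where centromere proteins, spindle motors and the spindle checkpoint align the chromosomes before the cell is cleaved. Beta cells of adult rats divide seldom, and removal of pancreas tissue is known to raise their division in the weeks after surgery. Macrophages, fibroblasts, endothelial, duct and acinar cells can also divide and use the same genes.

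Levels are given as CPM, which sets a gene's counts against the library's total after scaling by TMM, a scaling that takes most genes as unchanged between libraries. A gene was called where its Benjamini-Hochberg adjusted p in edgeR's quasi-likelihood test over all genes tested was below 0.05, and values after ± are SDs unless named as standard errors (SE). Library totals ran from 22293547 to 33423286 counts in higher-glucose Px, from 19108091 to 31639406 in lower-glucose Px and from 12205650 to 18428397 in Sham. The libraries differed in much of their RNA. Of all genes tested, 64.7% were called in Px against Sham. Summed over 15 acinar cell markers (digestive enzymes and their regulators), levels were 302768 to 591621 CPM in higher-glucose Px, 147388 to 711054 CPM in lower-glucose Px and 6117 to 110109 CPM in Sham. Lower-glucose Px replicate 8 stood apart in myeloid markers, with a sum of 4178 CPM against 833 to 2024 CPM in the other 9 Px libraries. The scaling therefore matters: with library totals alone the median log2 fold change over all genes moved to -0.62 for Px against Sham, from 0.02 with TMM.

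The promoters of 34 of the 45 genes were found in RefSeq (GRCr8, 250 bases before to 50 after the start of the gene). In each role the called gene with the smallest p in Px against Sham was taken from those whose promoter was found, and its promoter is shown where it held a CHR or an E2F site, since these genes moved together. Capitals mark the CHR (TTTGAA), a site of the MuvB complexes of mitotic genes, the CCAAT box (CCAAT), and E2F sites (TTTCCCGC or TTTGGCGC), each on either strand. Positions are chr9:30733697-30733996 (minus strand) for Mcm3, chr1:199952544-199952843 (minus) for Mki67, chr20:19265043-19265342 (plus) for Cdk1, chr3:126016817-126017116 (plus) for Bub1b, chr8:71320535-71320834 (minus) for Kif23 and chr5:137255750-137256049 (minus) for Cdc20.
Mcm3: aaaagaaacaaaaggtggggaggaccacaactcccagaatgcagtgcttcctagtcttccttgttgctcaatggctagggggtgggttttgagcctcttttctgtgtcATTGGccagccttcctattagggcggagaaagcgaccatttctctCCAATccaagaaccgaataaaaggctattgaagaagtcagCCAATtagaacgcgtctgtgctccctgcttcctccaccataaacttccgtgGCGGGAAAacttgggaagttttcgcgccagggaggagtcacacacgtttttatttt
Mki67: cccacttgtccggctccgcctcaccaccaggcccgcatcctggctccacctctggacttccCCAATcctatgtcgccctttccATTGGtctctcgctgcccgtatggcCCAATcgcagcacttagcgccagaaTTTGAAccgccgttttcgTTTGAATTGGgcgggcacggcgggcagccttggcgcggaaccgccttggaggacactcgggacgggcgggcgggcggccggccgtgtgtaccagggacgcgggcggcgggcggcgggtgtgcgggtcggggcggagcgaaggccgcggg
Cdk1: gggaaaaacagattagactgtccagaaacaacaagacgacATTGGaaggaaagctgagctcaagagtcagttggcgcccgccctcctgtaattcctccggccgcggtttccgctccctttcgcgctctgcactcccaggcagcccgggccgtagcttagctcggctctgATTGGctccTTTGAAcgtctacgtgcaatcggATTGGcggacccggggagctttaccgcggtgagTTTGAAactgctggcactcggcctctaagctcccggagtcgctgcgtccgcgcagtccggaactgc
Bub1b: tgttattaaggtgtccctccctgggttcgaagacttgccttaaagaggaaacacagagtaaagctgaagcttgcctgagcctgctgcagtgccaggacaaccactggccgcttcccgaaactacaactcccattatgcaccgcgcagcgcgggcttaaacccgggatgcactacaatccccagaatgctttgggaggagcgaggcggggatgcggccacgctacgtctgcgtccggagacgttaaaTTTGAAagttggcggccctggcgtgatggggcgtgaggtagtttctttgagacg
Kif23: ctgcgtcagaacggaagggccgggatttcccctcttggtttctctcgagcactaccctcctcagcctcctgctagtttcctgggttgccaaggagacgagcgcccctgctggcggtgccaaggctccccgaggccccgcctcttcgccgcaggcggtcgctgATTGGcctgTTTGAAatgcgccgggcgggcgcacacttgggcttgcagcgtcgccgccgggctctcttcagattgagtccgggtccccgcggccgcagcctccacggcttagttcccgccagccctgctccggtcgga
Cdc20: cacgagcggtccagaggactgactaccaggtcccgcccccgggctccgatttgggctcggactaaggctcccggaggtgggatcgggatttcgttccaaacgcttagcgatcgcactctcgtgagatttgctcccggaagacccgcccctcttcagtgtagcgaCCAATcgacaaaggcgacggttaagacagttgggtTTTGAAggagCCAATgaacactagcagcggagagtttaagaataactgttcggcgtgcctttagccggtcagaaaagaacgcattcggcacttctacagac
Mcm3, of the replicative helicase, held an E2F site and no CHR, and the 5 others held a CHR and no E2F site of these letters. In Mki67 a CHR and a CCAAT box on the other strand overlapped in 1 base. The CHR was in 13 of the 19 promoters found for the centromere, kinase, spindle and anaphase genes (68.4%), in 1 of the 9 for the licensing, clamp and nucleotide genes (11.1%) and in 18.3% of all 33469 promoters of the same length. The E2F site ran the other way, with 1 of 19 (5.26%), 6 of 9 (66.7%) and 1.45% of all promoters. CCAAT boxes were in 25 of the 34 promoters (73.5%) and in 37.5% of all. Aurka and Pcna, which took this place among the kinases and among the clamp and nucleotide genes, held neither a CHR nor these E2F letters in this window and are not shown. No promoter of the 2 transcription factors was found. A match of letters is not evidence that a factor binds there.

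Most of the module was higher after pancreatectomy. Of the 45 genes, 40 rose in Px against Sham, and 1, Ccne2, fell. Over all genes 34.5% rose and 30.2% fell. The median log2 fold change was 1.29 for the module and 0.02 for all genes tested. Mcm4, Foxm1, Rrm1 and Tyms were not called. Every Px library lay above every Sham library for 17 of the 45 genes (20.6% of all genes tested) and below for 1 (16.6%). With library totals alone 16 rose and 2 fell (Ccne2 and Tyms), and 36 of 45 log2 fold changes were positive. In bulk RNA, more dividing cells and more of these transcripts per cell cannot be told apart. The authors' deposited table of fold changes, whose contrast direction is not stated, lists the 45 genes with 39 positive and 1 negative at an adjusted p below 0.05. Its signs equalled those of Px against Sham here for 14959 of the 15179 genes in both.

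The rise was smaller in the higher-glucose Px rats. In higher-glucose Px against Sham, 17 genes rose and 1 fell (32.2% and 25.5% of all genes, 57.7% in either direction), with a median log2 fold change of 0.50, and in lower-glucose Px against Sham 42 rose and 1 fell (33.6% and 30.0%, 63.5% in either direction), with a median of 1.49. All 17 also rose in lower-glucose Px. Both comparisons share the Sham libraries. With library totals alone the split in higher-glucose Px turned to 0 higher and 7 lower, with 39 of 45 log2 fold changes negative. That scaling lowered other gene lists too. All 17 regulators of the Rb, E2F and MuvB network were negative (median -1.24), as were 13 of 15 islet endocrine markers, while all 16 myeloid markers stayed positive. The share of all genes called with it is not given here. In lower-glucose Px the median of all 9 roles stayed positive but was smaller, at 0.005 in place of 0.46 for the clamp and nucleotide genes. Fewer genes rose there in every role except the proliferation marks, such as 4 in place of 8 for licensing and the helicase. Higher-glucose Px libraries lay wholly above Sham for 17 genes (29.9% of all genes), and lower-glucose Px libraries did so for 37 (22.8%).

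**Figure D1:**
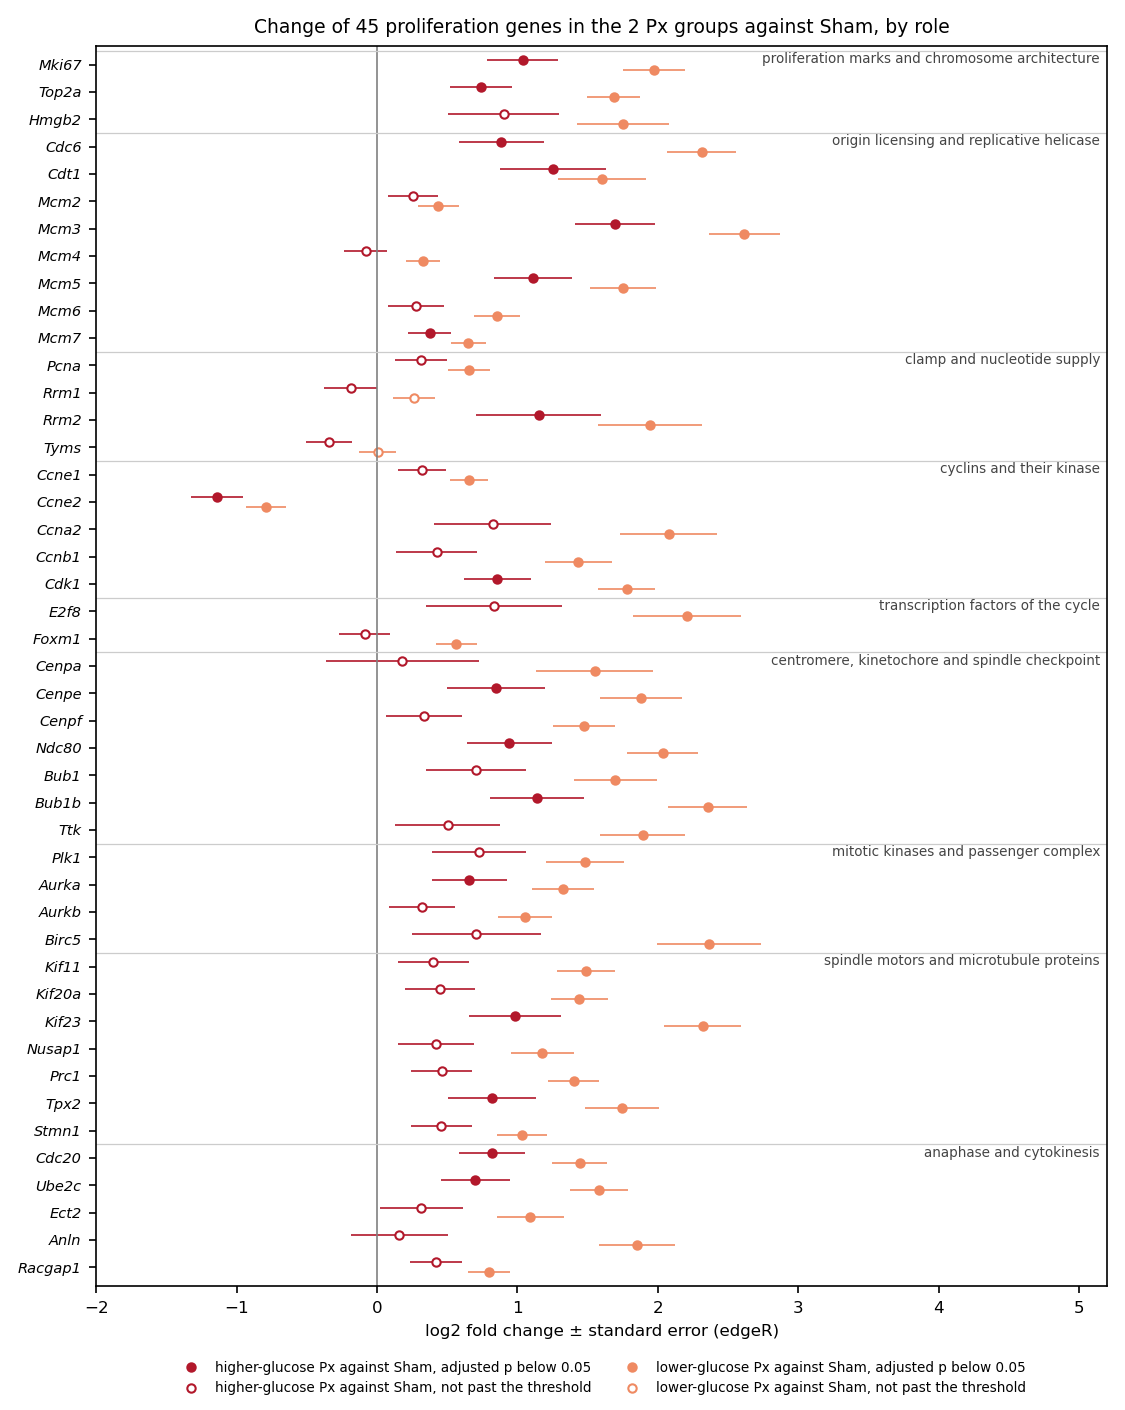
Log2 fold change with its standard error of each of the 45 genes against Sham, by role, in higher-glucose Px (red) and lower-glucose Px (orange); filled points have an adjusted p below 0.05. The orange points lie right of the red ones for all 45 genes, and with library totals alone 34 of the 45 red values change sign and 39 are negative. That scaling also lowers the median of the other gene lists.

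The 3 general marks of proliferation all rose in Px. With library totals alone 2 of the 3 were called higher, with a median log2 fold change of 0.99. Mki67 encodes the Ki-67 protein, which coats mitotic chromosomes and is absent from resting cells. It lies on chromosome 1 at 207993895 to 208020454 in the coordinates of the count table, for which no genome build is stated in the sources at hand. It had 13.4, 14.4 and 11.4 CPM in higher-glucose Px, a lowest, median and highest of 16.6, 22.7 and 41.1 CPM in lower-glucose Px, and 5.16, 7.72, 5.41, 5.73 and 8.09 CPM in Sham. The 3 groups did not overlap. Top2a, the topoisomerase that untangles sister chromatids, had 15.3, 19.9 and 16.9 CPM in higher-glucose Px, 21.8, 30.7 and 50.4 CPM (lowest, median, highest) in lower-glucose Px, and 8.31, 11.5, 9.81, 10.3 and 12.4 CPM in Sham, again without overlap. Log2 fold changes in Px against Sham were 1.76 (SE 0.28, adjusted p = 3.94e-05) for Mki67 and 1.47 (SE 0.26, adjusted p = 0.000103) for Top2a. Hmgb2, a DNA-bending protein of dividing cells, had 2.09, 3.16 and 3.02 CPM in higher-glucose Px, 3.17, 4.28 and 10.2 CPM in lower-glucose Px and 2.0, 2.32, 1.01, 1.21 and 0.867 CPM in Sham. One higher-glucose library fell within the Sham range, and the 10.2 CPM is replicate 8, whose myeloid markers stood apart.

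Among the 8 genes of origin licensing and the helicase, 7 rose in Px, with a median log2 fold change of 1.11. Mcm3, a helicase subunit on chromosome 9 at 26914057 to 26932201 in the count table, had the smallest p of the module. It had 7.30, 7.11 and 6.84 CPM in higher-glucose Px, a lowest, median and highest of 9.85, 11 and 25.8 CPM in lower-glucose Px and 1.47, 2.32, 2.20, 2.82 and 2.14 CPM in Sham. The groups were apart, and the change in Px against Sham was 2.40 (SE 0.31, adjusted p = 4.41e-06). The subunits were unequal. Mcm4 had 14.7, 10.7 and 10.1 CPM in higher-glucose Px, 12.2, 16 and 19.3 CPM in lower-glucose Px and 13.3, 13.4, 11.9, 11.5 and 12.7 CPM in Sham, where all groups overlapped (log2 fold change 0.22, SE 0.14, adjusted p = 0.165, and -0.38 with library totals alone). Mcm5 rose by 1.60 and Mcm6 by 0.71, whereas Mcm2 and Mcm7 rose by 0.39 and 0.58 and turned to -0.22 and -0.03 with library totals alone. The loading factors Cdc6 and Cdt1 rose by 2.02 and 1.51.

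The clamp and nucleotide genes had the lowest median of the 9 roles, 0.36, which turned to -0.22 with library totals alone. Of these 4 genes 2 rose. Pcna, the sliding clamp of the replication fork, had 88.4, 51.9 and 83.8 CPM in higher-glucose Px, 67.7, 95.3 and 124 CPM (lowest, median, highest) in lower-glucose Px, and 51.3, 57.3, 62.7, 69.2 and 61.4 CPM in Sham. One library of each Px group fell within the Sham range. Its log2 fold change was 0.57 (SE 0.15, adjusted p = 0.00411), and -0.018 with library totals alone. Rrm2, the subunit of ribonucleotide reductase that is made for replication, had 1.97, 0.953 and 1.24 CPM in higher-glucose Px, 1.42, 2.10 and 4.04 CPM in lower-glucose Px, and 0.263, 0.707, 0.572, 0.492 and 1.10 CPM in Sham (log2 fold change 1.76, SE 0.39, adjusted p = 0.000752). Its partner Rrm1 was not called (0.15, SE 0.16). Tyms, thymidylate synthase, had 6.14, 7.63 and 5.98 CPM in higher-glucose Px, 7.0, 8.60 and 10.1 CPM in lower-glucose Px, and 8.05, 7.67, 8.67, 6.98 and 10.6 CPM in Sham. Lower-glucose Px overlapped Sham, and 2 of the 3 higher-glucose libraries lay below every Sham library (-0.09, SE 0.14, adjusted p = 0.598), and Tyms was called lower, at -0.69, with library totals alone.

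The cyclins split. Ccne1 and Ccne2 are the E cyclins, which open the DNA synthesis phase with Cdk2. Ccne2, on chromosome 5 at 24434872 to 24446406 in the count table, was the gene that fell. It had 2.03, 2.43 and 2.64 CPM in higher-glucose Px, 2.53, 2.97 and 3.77 CPM (lowest, median, highest) in lower-glucose Px and 6.42, 5.35, 4.66, 4.34 and 5.49 CPM in Sham, so that every Px library lay below every Sham library. Its log2 fold change was -0.88 (SE 0.14, adjusted p = 4.8e-05), negative also with library totals alone (-1.5) and not called (-0.44) with the endocrine scaling, which takes 8 secretory granule genes as constant. Ccne1 had 2.32, 2.6 and 2.85 CPM in higher-glucose Px, 2.70, 3.33 and 3.60 CPM in lower-glucose Px and 1.74, 2.32, 2.29, 1.97 and 2.08 CPM in Sham. It rose by 0.57 (SE 0.14, adjusted p = 0.00245), and was at -0.03 with library totals alone. The later partners rose more, with 1.81 for Ccna2 of the DNA synthesis and early mitotic phases, 1.20 for the mitotic cyclin Ccnb1 and 1.56 for their kinase Cdk1.

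Of the transcription factors, E2f8, a repressor of the E2F family that is itself made in DNA synthesis, rose by 1.93 (SE 0.46, adjusted p = 0.00142). Its level was low, at 0.522, 0.563 and 0.215 CPM in higher-glucose Px, 0.742, 0.955 and 1.67 CPM in lower-glucose Px, and 0.316, 0.101, 0.396, 0.269 and 0.116 CPM in Sham, which rests on 2 to 53 counts a library. Foxm1, the activator of mitotic genes, had 3.83, 3.94 and 3.66 CPM in higher-glucose Px, a lowest, median and highest of 4.72, 6.44 and 7.78 CPM in lower-glucose Px, and 4.58, 4.39, 4.00, 4.07 and 3.29 CPM in Sham. Lower-glucose Px lay wholly above both other groups, and higher-glucose Px lay within the Sham range. Over all Px libraries Foxm1 was not called (0.41, SE 0.18, adjusted p = 0.061, and -0.18 with library totals alone), whereas in lower-glucose Px it rose by 0.57 (adjusted p = 0.00256).

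**Figure D2:**
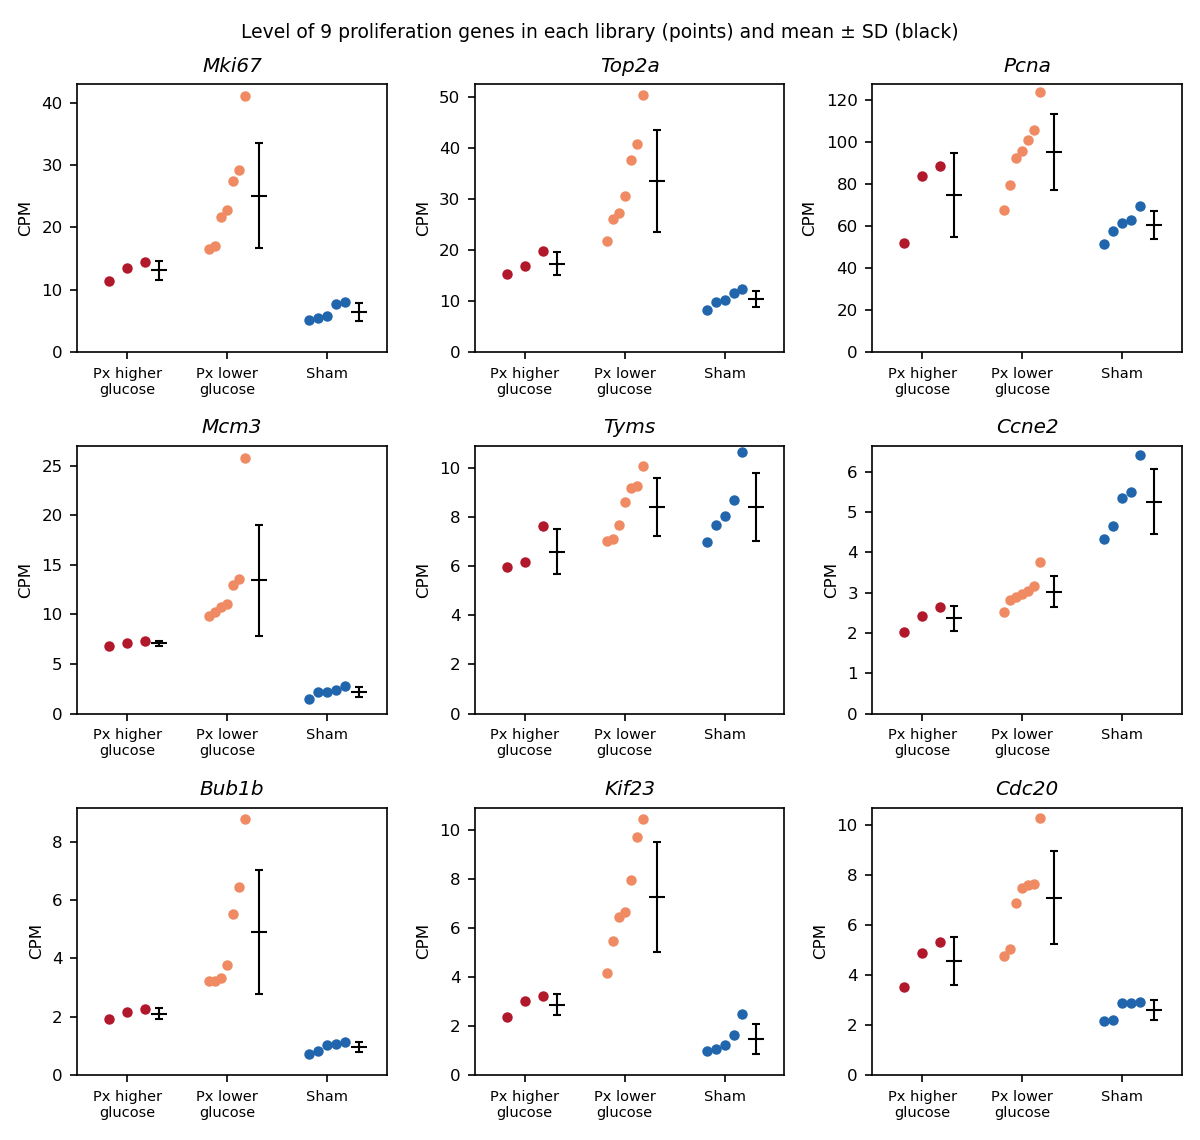
CPM of 9 genes in each library of higher-glucose Px, lower-glucose Px and Sham, with points ordered by value and the mean ± SD in black. Mki67, Top2a, Mcm3 and Bub1b show 3 separate levels, Tyms overlaps in all groups, and Ccne2 is lower in all Px libraries than in Sham.

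The 7 centromere, kinetochore and checkpoint genes all rose in Px, with a median log2 fold change of 1.60. With library totals alone all 7 stayed positive, 3 were called higher and the median was 1.06. Bub1b encodes BubR1, the checkpoint kinase homologue that holds back anaphase. It had 1.91, 2.25 and 2.15 CPM in higher-glucose Px, 3.21, 3.77 and 8.77 CPM (lowest, median, highest) in lower-glucose Px, and 0.737, 1.06, 1.14, 1.03 and 0.809 CPM in Sham, in 3 ranges that did not overlap (2.09, SE 0.37, adjusted p = 0.0001). Cenpa, the centromere histone, had 0.116, 0.563 and 0.323 CPM in higher-glucose Px, 0.202, 1.05 and 1.43 CPM in lower-glucose Px, and 0.263, 0.353, 0.352, 0.313 and 0.231 CPM in Sham. Its change of 1.27 (SE 0.47, adjusted p = 0.0254) rests on 2 to 47 counts a library. Ndc80, which binds microtubules at the kinetochore, rose by 1.79, the motor Cenpe by 1.65, the checkpoint kinases Ttk and Bub1 by 1.60 and 1.47, and Cenpf by 1.22.

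All 4 mitotic kinase and passenger genes rose (median 1.23). With library totals alone all 4 stayed positive, 1 was called higher and the median was 0.65. Aurka, the kinase of spindle poles, had 2.38, 2.64 and 2.26 CPM in higher-glucose Px, 2.90, 3.25 and 6.30 CPM (lowest, median, highest) in lower-glucose Px, and 1.79, 1.82, 1.58, 1.43 and 1.10 CPM in Sham. Its 3 groups did not overlap (1.16, SE 0.25, adjusted p = 0.000545). Aurkb, the kinase of the passenger complex, had 5.10, 4.77 and 5.33 CPM in higher-glucose Px, 5.26, 8.17 and 13.2 CPM in lower-glucose Px, and 4.10, 4.64, 3.30, 4.75 and 3.52 CPM in Sham (0.88, SE 0.23, adjusted p = 0.00288). Every Px library lay above every Sham library, by a narrow margin. Birc5, or survivin, of the same complex, rose by 2.05, and Plk1 by 1.30.

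The 7 spindle genes also all rose, with a median of 1.22. With library totals alone all 7 stayed positive, 2 were called higher and the median was 0.68. Kif23, a motor that bundles the central spindle, had 3.01, 2.38 and 3.23 CPM in higher-glucose Px, 4.15, 6.66 and 10.4 CPM (lowest, median, highest) in lower-glucose Px and 1.05, 2.47, 0.968, 1.21 and 1.62 CPM in Sham. Lower-glucose Px stood above all others, and 1 higher-glucose library lay below the highest Sham library (2.04, SE 0.38, adjusted p = 0.000164). Nusap1, which crosslinks spindle microtubules, had 2.67, 3.77 and 3.82 CPM in higher-glucose Px, 4.15, 5.47 and 8.05 CPM in lower-glucose Px, and 1.53, 2.42, 3.04, 2.42 and 3.47 CPM in Sham (1.0, SE 0.26, adjusted p = 0.00261). Kif11 and Kif20a, motors of the early and late spindle, rose by 1.25 and 1.22, the bundler Prc1 by 1.18, the assembly factor Tpx2 by 1.53 and the microtubule destabiliser Stmn1 by 0.89.

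The 5 anaphase and cytokinesis genes rose as well, with a median of 1.29. With library totals alone all 5 stayed positive, 0 were called and the median was 0.72. Cdc20, which starts anaphase by activating the anaphase-promoting complex, had 4.87, 5.33 and 3.50 CPM in higher-glucose Px, 4.76, 7.47 and 10.3 CPM (lowest, median, highest) in lower-glucose Px, and 2.21, 2.93, 2.86, 2.87 and 2.14 CPM in Sham, with all Px above all Sham libraries (1.29, SE 0.22, adjusted p = 9.07e-05). Ect2, which sets the cleavage furrow, had 2.49, 3.90 and 3.02 CPM in higher-glucose Px, 2.91, 4.95 and 8.39 CPM in lower-glucose Px, and 2.05, 2.68, 2.46, 1.97 and 3.58 CPM in Sham (0.91, SE 0.27, adjusted p = 0.00743). Here each Px group overlapped Sham. The ubiquitin-conjugating enzyme Ube2c rose by 1.38, the furrow scaffold Anln by 1.53 and Racgap1 by 0.70.

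Per kilobase of exon, Pcna had the highest level of the module in each group, with means of 64.4 CPM per kilobase in higher-glucose Px, 81.8 in lower-glucose Px and 52.1 in Sham. Stmn1 came next, at 15.4, 22.9 and 11.3 CPM per kilobase in the same groups. Ki-67 stood at 1.32, 2.54 and 0.650 CPM per kilobase. Cenpa and E2f8 were the lowest in lower-glucose Px and in Sham.

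The direct comparison of the 2 Px groups set the same genes in rats whose glucose was above and below 300. All 45 log2 fold changes of higher- against lower-glucose Px were negative, with a median of -0.88 (all genes -0.02). Of the 45 genes 16 fell and 0 rose, where 1.59% of all genes fell, 3.29% rose and 4.88% did either. For the rise, 0 genes also passed an unadjusted p below 0.05, and DESeq2 and limma voom called 0. For 24 genes every higher-glucose library lay below every lower-glucose library, against 4.73% of all genes, and 5.22% of all genes lay wholly above. Anln fell most, to 0.936 ± 0.223 CPM in higher-glucose Px (n = 3), against 3.01 ± 1.12 CPM in lower-glucose Px (n = 7), a log2 fold change of -1.69 (SE 0.33, adjusted p = 0.00744). Birc5 averaged 0.906 ± 0.300 CPM in higher-glucose Px and 2.88 ± 1.48 CPM in lower-glucose Px (-1.66, SE 0.43, adjusted p = 0.0367). Cdc6 averaged 1.45 ± 0.307 CPM in higher-glucose Px and 3.88 ± 1.30 CPM in lower-glucose Px (-1.43, SE 0.28, adjusted p = 0.00882). These 3 differences exceeded the SD within either group.

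The 16 genes were mostly mitotic. The checkpoint and kinetochore genes Ttk, Bub1b, Cenpf and Ndc80 fell by 1.39, 1.22, 1.14 and 1.09 on the log2 scale. The spindle genes Kif23, Kif11, Kif20a and Prc1 fell by 1.34, 1.09, 0.99 and 0.94, and Ube2c by 0.88. Top2a fell by 0.95, Mki67 by 0.94, Cdk1 by 0.92 and Foxm1 by 0.65. Cdc6 was the one gene of the 12 for licensing, clamp and nucleotides that passed. Pcna was at -0.34 (SE 0.18, adjusted p = 0.261), Mcm2 at -0.18 (SE 0.17, adjusted p = 0.535) and Tyms at -0.35 (SE 0.16, adjusted p = 0.205). Whether the mitotic genes differed more than the replication genes was not tested.

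The calls between the Px groups rest on few libraries. Without higher-glucose Px replicate 13, 15 or 19 the count of genes that fell was 1, 1 and 3, and without lower-glucose Px replicate 2 or 10 it was 7 and 8, with all 45 values negative each time. Lower-glucose Px replicates 14 and 16 were as rich in acinar transcripts as the higher-glucose libraries. Without the 5 lower-glucose Px libraries whose acinar sum lay below every higher-glucose library, 0 genes fell by the adjusted p, all 45 were still negative and their median was -0.42. For 24 of the 45 genes, all 3 higher-glucose libraries lay below both of these lower-glucose libraries, against 13.1% of all genes tested. Mki67 had 13.4, 14.4 and 11.4 CPM in higher-glucose Px and 17.0 and 16.6 CPM in replicates 14 and 16.

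**Figure D3:**
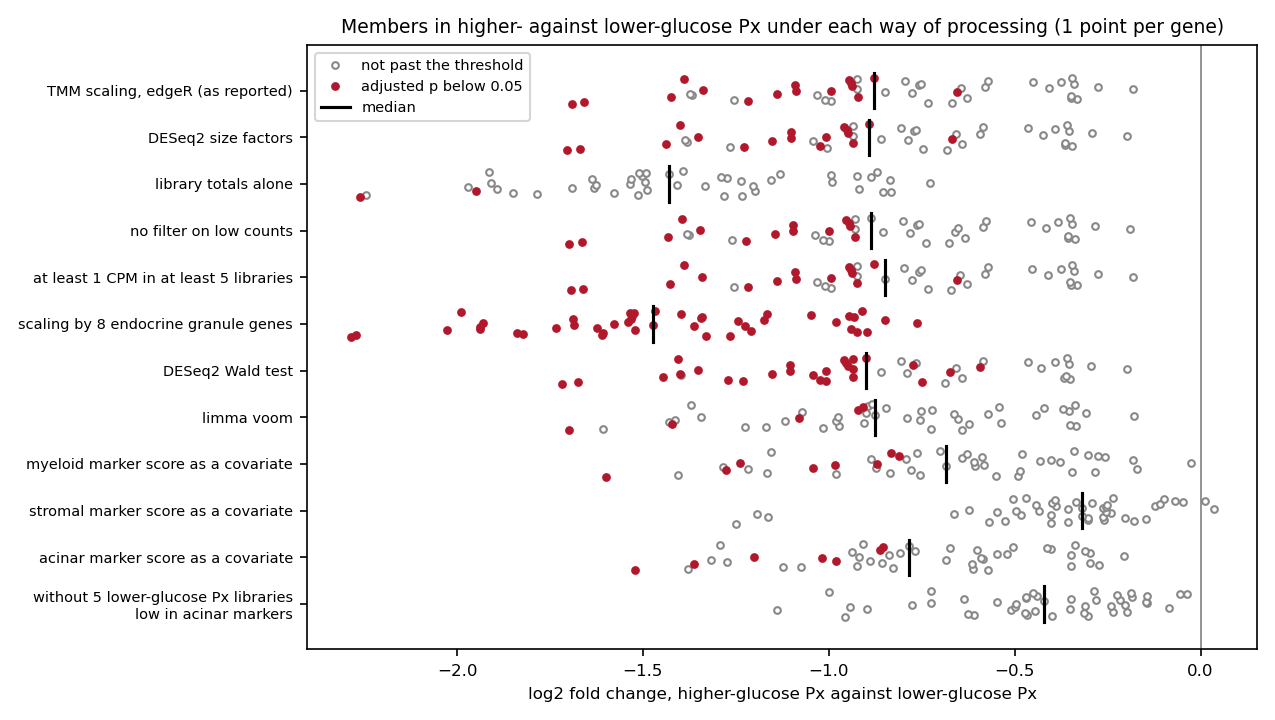
Log2 fold change of the 45 genes in higher- against lower-glucose Px (1 point per gene) under each way of processing tried, with genes at an adjusted p below 0.05 in red and the median as a black bar. The points lie left of 0 except for 2 genes with the stromal score as a covariate, while the number of red points runs from 0 to 45.

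Within the 7 lower-glucose Px rats, whose labelled glucose ran from 104 to 211, no gene of the module passed the test of a slope on glucose. In edgeR's test of the slope on log2 glucose 0 of the 45 genes were called, 0 had an unadjusted p below 0.05, and 0 of all 15695 genes tested were called (0.00%). DESeq2 and limma voom called 0 members too. Of the slopes 36 were positive, with a median of 0.30 per doubling of glucose (all genes 0.01). Replicate 14, at a glucose of 104, had a summed level of 447 CPM over the 45 genes, and replicate 11, at 211, had 463 CPM. Replicate 8, at 155, had the highest, 833 CPM.

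The islet preparations differed between Px and Sham in the RNA of cell type markers as well as in the module, while their cell content was not measured. All 16 myeloid markers measured (genes of macrophages and related cells, such as Csf1r, Cd68 and the C1q chains) rose in Px against Sham, with a median log2 fold change of 4.00. Their summed level was 875 to 1172 CPM in higher-glucose Px, 833 to 4178 CPM in lower-glucose Px and 36.6 to 80.3 CPM in Sham, with no overlap between Px and Sham. All 16 stromal markers (collagens and other fibroblast and stellate cell genes) rose too, by a median of 3.67. Their sum was 2059 to 3321 CPM in higher-glucose Px, 4321 to 9210 CPM in lower-glucose Px and 342 to 745 CPM in Sham, 3 ranges in the same order as the 45 proliferation genes. Those summed to 347 to 381 CPM in higher-glucose Px, 447 to 833 CPM in lower-glucose Px and 240 to 307 CPM in Sham. Defining markers were present in all libraries except Spi1, which was at 0 in 1 of 5 Sham libraries.

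Markers of other cells moved as well. The 7 lymphocyte markers tested rose (median 4.24), with sums of 55.3 to 70.8 CPM in higher-glucose Px, 50.3 to 194 CPM in lower-glucose Px and 7.11 to 14 CPM in Sham, and several, such as Ms4a1 and Cd79b, were at 0 in some libraries. Of the acinar markers 14 of 15 rose, of the duct markers 9 of 10, and of the endothelial markers 7 of 9. Of 15 islet endocrine markers 10 fell and 1 rose, with sums of 62120 to 77451 CPM in higher-glucose Px, 55518 to 90651 CPM in lower-glucose Px and 103414 to 209118 CPM in Sham. For every 100 CPM of myeloid markers the 45 genes had 29.6 to 43.3 CPM in higher-glucose Px, 19.9 to 71.5 CPM in lower-glucose Px and 375 to 655 CPM in Sham. For every 100 CPM of stromal markers they had 10.5 to 18.5 CPM in higher-glucose Px, 6.46 to 11 CPM in lower-glucose Px and 38.5 to 70.0 CPM in Sham. Both ratios were lower in every Px library than in every Sham library. Since no Px library overlaps Sham in myeloid or stromal markers, the operation and these marker levels cannot be told apart. With the myeloid score (the mean log2 CPM of its list) as a covariate, 42 of the 45 values in Px against Sham were negative with a median of -0.61, and edgeR called 0 of all genes. With the stromal score 0 rose and 6 fell, and 44 of 45 values were negative.

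**Figure D4:**
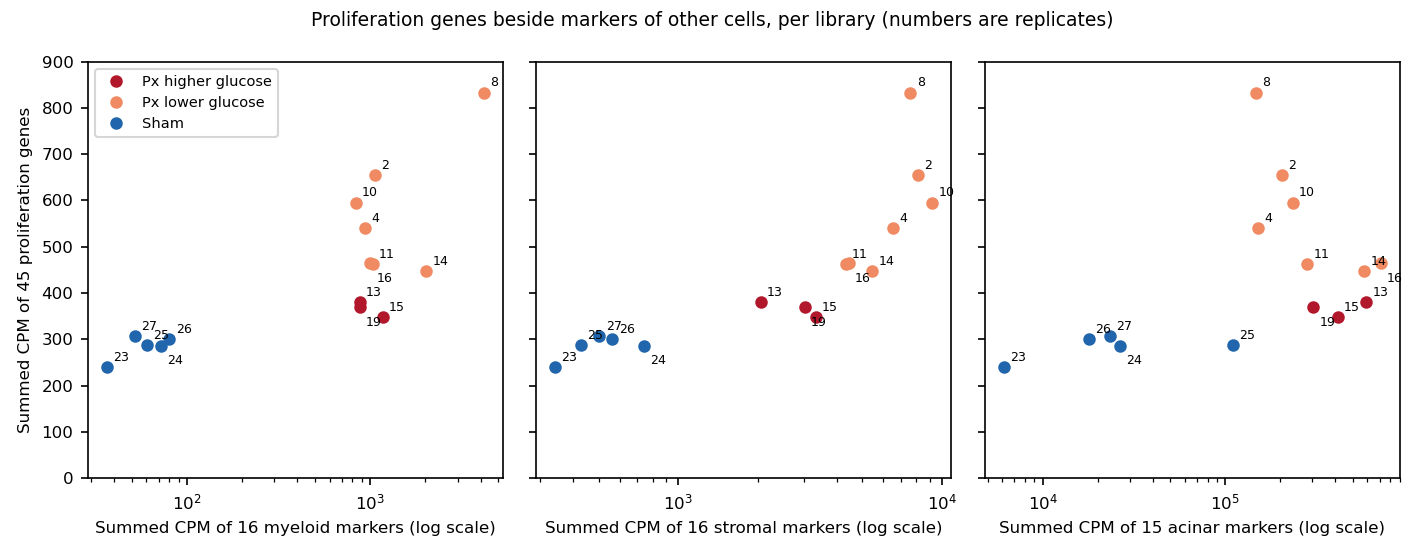
Summed CPM of the 45 proliferation genes in each library against the summed CPM of 16 myeloid, 16 stromal and 15 acinar markers (log axes), with replicate numbers beside the points. Px libraries lie right of all Sham libraries in each panel, and within Px the sum of the 45 genes is highest in replicate 8.

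Among the 10 Px libraries alone the module was related to the marker scores, with the glucose group as a term. On the myeloid score all 45 slopes were positive, with a median of 0.29 per log2 unit, but 0 were called in edgeR (3.88% of all genes were, 3.49% with positive slopes), 8 had an unadjusted p below 0.05, and DESeq2 and limma voom called 2 and 1. The sign rested on replicate 8: without it 35 of 45 slopes were negative, with a median of -0.25. On the stromal score 44 slopes were positive, with a median of 0.63, 0 were called (0.0816% of all genes), 20 had an unadjusted p below 0.05, and DESeq2 and limma voom called 1 and 0. Without replicate 8, 42 were positive, with a median of 0.44. Without the glucose group as a term 29 genes were called on the stromal score, a fit for which the share of all genes is not given here. The stromal markers also fell in part in higher- against lower-glucose Px (5 of 16 called, median -0.82). In that comparison 13 of 16 myeloid markers and 8 of 8 lymphocyte markers were negative too, with medians of -0.62 and -1.19 and 0 called in either list. With the stromal score as a covariate, 0 genes fell in higher- against lower-glucose Px, 43 of 45 values were negative and their median was -0.32.

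On the acinar score 44 of 45 slopes were negative, with a median of -0.39, and 4 genes were called (0.643% of all genes fell). These were Birc5 (-0.92, SE 0.19, adjusted p = 0.0233), Tpx2 (-0.65, SE 0.15, adjusted p = 0.0405), Stmn1 (-0.49, SE 0.07, adjusted p = 0.00264) and Prc1 (-0.43, SE 0.10, adjusted p = 0.0331). Without single libraries the count ran from 1 (without lower-glucose replicates 2, 8, 14 or 16) to 12 (without replicate 4), and was 2 without replicate 10. The scores are measured in the same libraries as the genes, and stromal and acinar scores themselves ran against each other, at a Pearson correlation of -0.70 over the 10 Px libraries. Their part in the differences of the module was not tested.

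Other genes of the same machinery gave a similar picture for mitosis, while the controls upstream were called in both directions. Among all genes tested 34.5% rose and 30.2% fell. Of 49 further mitosis genes tested 44 rose in Px against Sham and 1 fell, with a median of 1.36. With library totals alone 11 rose and 2 fell, with a median of 0.80. Cenpk, a kinetochore subunit, rose by 1.52 (SE 0.23, adjusted p = 2.67e-05) and the motor Kif22 by 1.71 (SE 0.27, adjusted p = 2.96e-05), while Cdc25b, a phosphatase that activates Cdk1, fell by 0.70 (-0.22 and not called when scaled by the endocrine genes). Of 33 further replication genes 20 rose and 2 fell (median 0.69, and with library totals alone 5 rose and 5 fell). Pola2, of the primase complex, rose by 1.34, and Uhrf1, which maintains DNA methylation at the fork, by 2.25. The replisome factor Gins3 and the origin subunit Orc6 fell by 0.70 and 0.41, and were at -0.24 and 0.04, not called, when scaled by the endocrine genes.

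Of 17 regulators of the Rb, E2F and MuvB network 3 rose and 7 fell (median -0.21, and 0.23 when scaled by the endocrine genes, with 4 higher and 0 lower). Mybl2, an activator of mitotic genes, rose by 1.73 and E2f7, a repressor like E2f8, by 1.09. With library totals alone Mybl2 was at 1.19, still called, and E2f7 at 0.51, not called. The brake Rb1 and the E2F partner Tfdp2 fell by 0.44 and 0.48, at 0.01 and -0.05 with the endocrine scaling. Of 11 D cyclins, their kinases and inhibitors 4 rose and 3 fell, which is close to the shares of all genes (34.5% and 30.2%). Cdk6, the kinase of D cyclins, rose by 3.01 (SE 0.30, adjusted p = 3.75e-07) and the inhibitor Cdkn1a, or p21, by 1.79. The cyclin Ccnd2 fell by 0.81 and the inhibitor Cdkn1b, or p27, by 0.65 (-0.22 and not called with the endocrine scaling). The histone chaperone Asf1b rose by 2.08 and the histone variant H2afz by 0.53 (-0.14 with library totals alone), 2 of 3 genes of their list. In higher- against lower-glucose Px 1.59% of all genes fell and 3.29% rose. There, 8 of 50 further mitosis genes fell and 0 rose (47 negative), and 2 of 33 replication genes fell. Of 17 regulators 1 fell, and 0 of 12 genes of the D cyclin list were called. Cdc25b fell by 0.80 (adjusted p = 0.00356) in that comparison. Cdk6 and Cdkn1a were at 0.06 (SE 0.30, adjusted p = 0.929) and -0.08 (SE 0.29, adjusted p = 0.897).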

How the data were processed

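RNA of 15 rat islet samples was sequenced. FastQC, Subread, featureCounts and limma are named without versions, per the submitters' processing notes. The authors deposited unnormalized counts, per the file headers, in 1 column per library. For this table no genome build, strand setting or treatment of multi-mapped reads is stated in the sources at hand. The authors' deposited comparison table holds a log2 fold change and an adjusted p-value per gene, without its model or direction.

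Counts were scaled by TMM and tested with edgeR 4.0.16 (quasi-likelihood, R 4.3.3). Genes needed a count of about 10 in enough libraries and 15 in total, and p-values were Benjamini-Hochberg adjusted over all genes tested. Px was compared with Sham in a 2-group fit, and the Px groups, divided at a glucose of 300, in a 3-group fit. Slopes were fitted within Px libraries. A score is the mean log2 CPM (prior count 2) of a marker list. Libraries were treated as separate rats, and p-values set each difference or slope against the spread between these samples. The SE of an edgeR value is its absolute log2 fold change divided by the square root of the test's F statistic. Alternatives were DESeq2 1.42.0, limma 3.58.1 voom, other scalings and filters, marker scores as covariates, and leaving out each library. Scaling by endocrine granule genes and leaving out lower-glucose Px libraries low in acinar markers were chosen after seeing the data. The scripts were tested on simulated counts.

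Values by library (for the 7 lower-glucose Px libraries the lowest, median and highest) are given for Mki67, Top2a, Pcna and the genes of smallest and largest p in each role, and other lists are represented by their smallest p-values in each direction. The genes and lists were chosen with earlier results of these data known.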

Additional observations from a re-analysis of the deposited data

Results flagged for a closer look

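Within lower-glucose Px and Sham, 9 of 90 sets of library values held a library far from the others. Chance flags about 1 in 20 independent sets, whereas these sets share libraries. Higher-glucose Px was not examined in this way. Of the 9 flags, 6 were lower-glucose Px replicate 8, the library with the highest myeloid and lymphocyte marker levels. It had 10.2 CPM of Hmgb2, 25.8 CPM of Mcm3, 68.1 CPM of Rrm1, 9.76 CPM of Bub1, 6.58 CPM of Ttk and 5.38 CPM of Ube2c. Without it the median log2 fold change in lower-glucose Px against Sham was 1.39 in place of 1.49. In Sham, replicate 24 was high in Ttk (2.02 CPM), and replicate 23 was low in Ube2c (0.684 CPM) and Racgap1 (6.42 CPM).

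In edgeR's test of higher- against lower-glucose Px with Benjamini-Hochberg adjustment, 16 genes of the module fell, where 1.59% of all genes fell. Without single libraries the count ran from 1 to 22. The Px groups also differed in stromal marker levels, whose part was not tested. The log2 fold changes were -0.94 for Mki67, -0.95 for Top2a, -1.43 for Cdc6, -0.92 for Cdk1 and -0.65 for Foxm1. They were -1.14 for Cenpf, -1.09 for Ndc80, -1.22 for Bub1b, -1.39 for Ttk and -1.66 for Birc5. They were -1.09 for Kif11, -0.99 for Kif20a, -1.34 for Kif23, -0.94 for Prc1, -0.88 for Ube2c and -1.69 for Anln.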

How the results depend on the processing

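Counts below are of the 45 genes called. The share of all genes called under each alternative is not given here, so these counts alone do not show a change particular to the module. Px against Sham, with 40 higher and 1 lower, became 16 and 2 with library totals alone, 0 and 0 with the myeloid score as a covariate, and 0 and 6 with the stromal score. The lower count was 0 with the endocrine scaling and with the acinar score. Leaving out single libraries gave 38 to 41 higher. In lower-glucose Px against Sham 0 rose with the myeloid or the stromal score, and 0 fell with these, the acinar score or the endocrine scaling. Library totals alone gave fewer higher genes there in every role except the proliferation marks. In higher-glucose Px against Sham, with 17 higher and 1 lower, library totals alone gave 0 and 7, the endocrine scaling and limma voom 11 higher, and the acinar score 6 higher. The myeloid or stromal score gave 0 higher, and the 3 scores 0 lower. Single libraries left out gave 11 to 22 higher. In higher- against lower-glucose Px the 16 lower became 2 with library totals alone, 45 with the endocrine scaling, 26 in DESeq2, 5 in limma voom, 8, 0 and 7 with the myeloid, stromal and acinar scores, and 0 without the 5 libraries low in acinar markers. Single libraries left out gave 1 to 22. In that comparison the endocrine scaling lowered other lists too. It called lower 11 of 17 regulators of the Rb, E2F and MuvB network and 7 of 15 islet endocrine markers, but 1 of 15 acinar markers. The myeloid slope, with 0 higher, gave 1 with DESeq2 size factors, 3 with the endocrine scaling, 2 in DESeq2, 1 in limma voom, 2 without the group term, and 0 to 3 without single libraries. The stromal slope gave 1 in DESeq2 and 29 without the group term. The acinar slope, with 4 lower, gave 45 with library totals alone, 2 with the endocrine scaling, 13 in DESeq2 and 13 without the group term, and 1 to 12 without single libraries. Single changes in Px against Sham were followed through the settings for Mki67, Top2a and Pcna only. With the myeloid and stromal scores all reversed, Mki67 at -0.25 and -0.80, Top2a at -0.30 and -1.19, and Pcna at -0.44 and -0.40. Pcna was at -0.018 with library totals alone. Other genes reversed too, 7 of the 45 in total with library totals alone and most of the 45 with the myeloid or stromal score. No Px library overlapped Sham in myeloid or stromal markers, so with these scores the operation and the marker levels cannot be told apart. The cause was not tested. No paired analysis was possible because the groups share no replicate numbers. E2f8 and Cenpa rest on few counts, which limits their precision.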
